A study of Apis mellifera with 18 samples.

Results

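The brain transcriptomes of both kinds of control queen in this honeybee (Apis mellifera ligustica) insemination study were compared: queens that received Hayes saline in RNA-seq Experiment 2 (3 libraries) and queens that were mock inseminated in RNA-seq Experiment 1 (3 libraries). These are 6 of the 18 libraries of the series. Genes entered the comparison when at least 10 reads had been counted in at least 3 of the 6 control libraries, which kept 11637 of 15314 gene models. Of the 3677 gene models left out, 1501 had no count in any control library. Just inside the limit, 86 genes had a third-highest count of 10, and just outside it 90 genes had one of 9. The limit was passed through the Hayes saline libraries alone by 90 genes and through the mock libraries alone by 19 genes, so that for these genes the filter itself had picked a low value in the other group.

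The study asked how semen and seminal fluid act on the queen brain, and each experiment had its own control beside a semen and a seminal fluid group. All queens were reared from larvae of 1 colony, were kept from natural mating, were given CO2 for 1 min at 4 days after hatching, and were sedated with CO2 again for the procedure. Mock-inseminated queens went through the whole procedure with no fluid, whereas Hayes saline queens received 6 µl of a salt solution with 9 g NaCl per litre at pH 8.7. Semen queens of either experiment received 6 µl of semen, pooled from about 10 males in Experiment 1 and from a number of males that the labels do not give in Experiment 2, and seminal fluid queens 6 µl of seminal fluid. Queens recovered for about 30 min, were collected 24 h later, and the brains of 3 queens were pooled for each library, so that individual queens cannot be told apart within a pool. No queen received saline in Experiment 1 and none was mock inseminated in Experiment 2. The type of control and the experiment therefore cannot be told apart in this comparison. The semen groups, which received the same volume of semen in both experiments, were used as the reference, although their semen may have been pooled differently: for each gene it was tested whether the difference between the controls exceeded the difference between the semen groups.

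Artificial insemination sedates a queen, opens her reproductive tract and delivers a fluid through a fine tip. A mock insemination controls for the sedation and handling, and a saline insemination controls in addition for the presence and volume of a fluid. Many of the genes with a name in these data belong to phototransduction, the cascade by which insect photoreceptors turn light into an electrical signal. In this cascade a light-activated opsin switches on a G protein, the G protein activates a phospholipase C (norpA), the lipid products open cation channels of the TRP family, and protein kinase C, the scaffold inaD and the class III myosin ninaC tune and end the response. Actin fills the microvilli of the photoreceptor membrane, and chaoptin, a surface glycoprotein, holds neighbouring microvilli together.

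Each control library held 26636844 to 38790156 counts assigned to genes, and all 18 libraries held 26636844 to 51745752. Experiments, not treatments, were the largest axis of variation. The first principal component of log2 CPM (counts of a gene relative to the library total times its scaling factor, given below) held 56.7% of the variance. The 9 libraries of Experiment 1 lay between -55.7 and -25.5 on it, and the 9 of Experiment 2 between 23.5 and 53.6. The mock libraries (-39.6 to -25.5) lay among the other libraries of their experiment, and so did the Hayes saline libraries (25.8 to 42.4). Reads in no annotated gene made up 16.6% to 18.1% of the reads of mock libraries and 19.7% to 20.4% of those of Hayes saline libraries, and reads aligned to several places 7.02% to 7.45% and 5.73% to 6.22%. The part of these shares in the gene differences was not tested. The lists of glial, neuronal, muscle, blood cell, fat body, gland and opsin markers held no gene with a name in the tables used here, so the tissue was not checked against its defining markers. Only 57 gene models could be paired with a name.

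**Figure D1:**
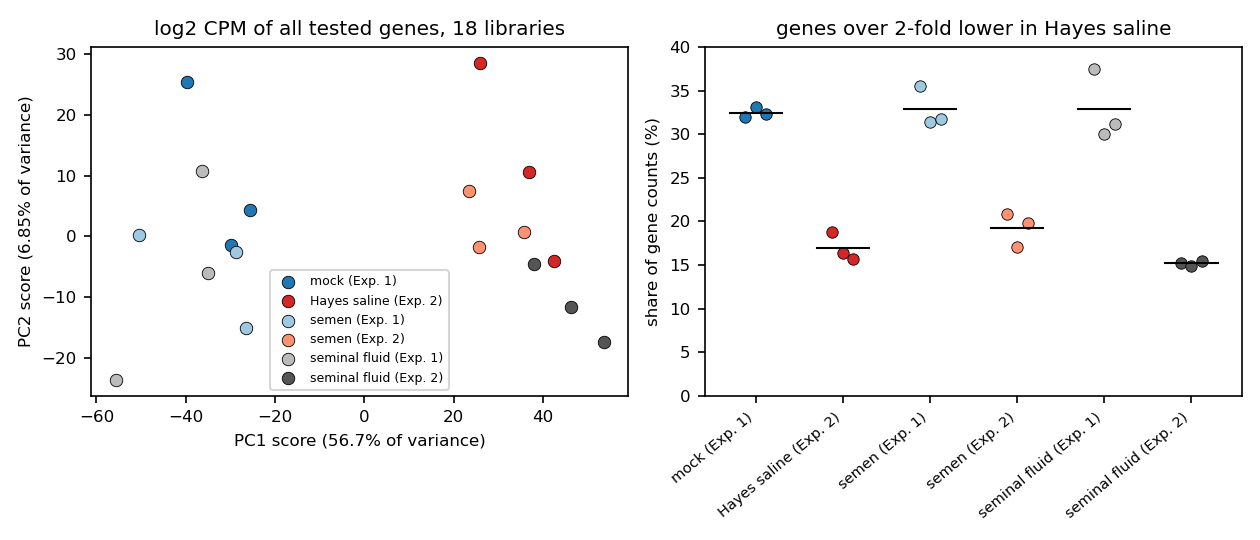
Left, scores of the 18 libraries on the first and second principal components of log2 CPM of all tested genes, in arbitrary units. Right, share of gene counts in each library (percent, points) and group means (lines) for the 1019 genes called over 2-fold lower in Hayes saline than in mock libraries. The 9 libraries of Experiment 1 lie at 30.0% or above and the 9 of Experiment 2 at 20.8% or below.

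About as many genes differed between the 2 control groups as between the 2 semen groups. Of the 11637 genes, 5835 (50.1%) differed between Hayes saline and mock libraries at an adjusted p under 0.1 in edgeR's quasi-likelihood test, 2760 (23.7%) being higher and 3075 (26.4%) lower in Hayes saline. Between the semen groups 5881 genes (50.5%) differed, 2793 (24.0%) being higher and 3088 (26.5%) lower in Experiment 2. The seminal fluid groups differed in 7611 genes (65.4%). Differences between the controls were mostly small, with a median size of 0.34 on the log2 scale (1.27-fold) against 0.33 (1.26-fold) between the semen groups, and 1 gene in 10 exceeded 1.05 and 0.99. The 3 libraries of one control group all lay on the same side of the 3 of the other for 5855 genes (50.3%), and this was so for 5086 of the genes called (87.2%). For the semen groups it was so for 6256 genes (53.8%).

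The split into higher and lower genes depends on the scaling of the libraries. Scaling used the trimmed mean of M values (TMM), which sets the typical gene to no change and gave factors of 0.780 to 0.907 to mock and 1.16 to 1.27 to Hayes saline libraries. With library totals alone the median log2 difference of all genes moved from -0.00 to 0.54, and 8236 genes were called, 7148 being higher and 1088 lower, so that 86.8% were higher instead of 47.3%. Directions given here are therefore relative to the typical gene. The comparison of the 2 differences was touched less: the median of the control difference minus the semen difference was -0.01 with TMM and -0.00 with library totals.

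No gene had a control difference that exceeded its semen difference by the test. The control difference minus the semen difference had an adjusted p under 0.1 in 0 of 11637 genes (0%) with edgeR, and the smallest adjusted p was 0.999864. DESeq2 and limma-voom also called 0 genes, with 408 and 369 at an unadjusted p under 0.05. At an unadjusted p under 0.05 there were 385 genes (3.31%), 218 with the larger difference between the controls and 167 with the larger difference between the semen groups. In plain size, the control difference was the larger in 6245 genes (53.7%) of all those tested. Among genes called between the controls it was the larger in 67.4%, and among genes called between the semen groups the semen difference was the larger in 54.5%; each of these shares was raised by the choice of genes on one of the values compared. The median standard error was 0.15 for the control difference and 0.21 for the difference of the differences. The 95% interval of the latter lay within 1 log2 unit of 0 for 8615 genes (74.0%), and for the others a 2-fold inequality was not detectable or not bounded at this number of libraries.

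The direction of the difference was mostly shared. Control and semen differences had the same sign in 85.7% of all genes and in 98.3% of those called between the controls. Of the genes called between the controls, 78.4% were also called in the same direction between the semen groups, and 77.7% the other way round. In counts, 2114 genes were higher and 2458 lower in both pairs, 1260 were called between the controls alone, 1306 between the semen groups alone and 4496 in neither. Of the 1260, 135 had an unadjusted p under 0.05 for the inequality and none an adjusted p under 0.1. A call in one pair alone is thus no sign that the pairs differed. Across genes the 2 log2 differences had a Pearson correlation of 0.82 and a Spearman correlation of 0.84. The 11637 genes are not independent replicates. None of the 12 libraries belongs to both pairs, but the pairs share the experiments, the joint scaling and the estimate of the spread. In 4 equal bins of mean level the Pearson correlation ran from 0.74 in the lowest to 0.90 in the third and 0.89 in the highest, and the share of genes called between the controls from 34.7% to 62.8%. With the seminal fluid groups as well, 4371 genes (74.9% of those called between the controls) were called in the same direction in all 3 pairs, 1990 being higher and 2381 lower in Experiment 2.

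**Figure D2:**
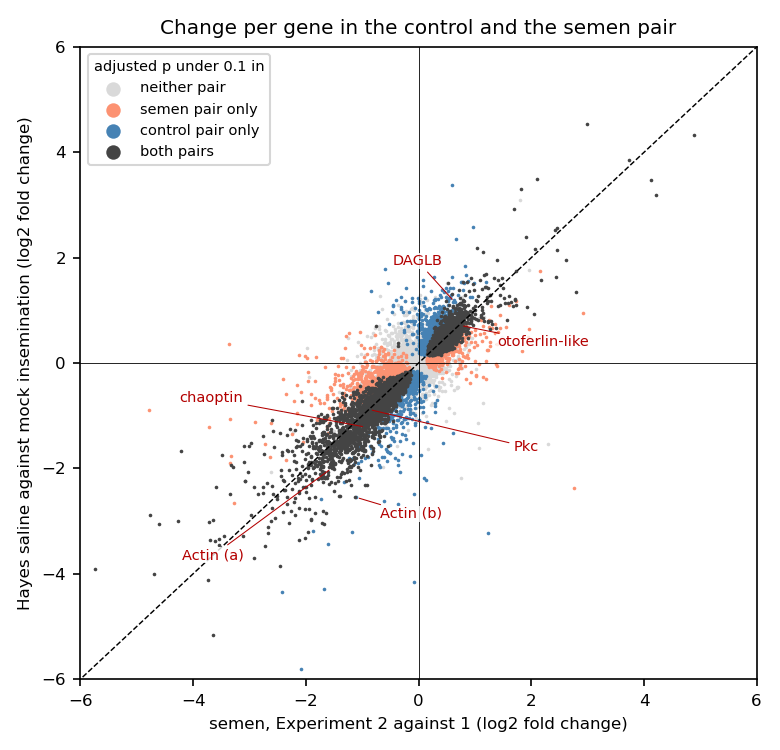
Log2 fold change of each gene between Hayes saline and mock libraries (vertical) and between the semen groups of Experiments 2 and 1 (horizontal), with TMM scaling. Colours give the pair in which the adjusted p was under 0.1, the dashed line marks equal differences, and 9 genes lie outside the range of 6 log2 units. Most points lie along the dashed line, with a Pearson correlation of 0.82.

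Only 3 genes were called in opposite directions in the 2 pairs, and they are named here after their values were seen. GB51905 was 0.71 higher in Hayes saline (adjusted p = 0.0317, edgeR) and fell by 0.76 in the semen pair (adjusted p = 0.0184) on the log2 scale. GB48521 had a difference of 0.38 between the controls and -0.37 between the semen groups, and GB55464 had 0.33 and -0.37. For each of the 3 the inequality had an adjusted p of 0.999864 over all genes, with unadjusted values of 0.000586, 0.00460 and 0.00269. None of them carries a name.

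Large differences were mostly toward lower values in Hayes saline. Of the 1205 genes called with more than a 2-fold difference between the controls, 1019 were lower in Hayes saline and 186 higher, and beyond 4-fold 151 were lower and 21 higher. The semen pair was uneven in the same direction, with 955 genes over 2-fold lower and 120 higher in Experiment 2. The 1019 lower genes, chosen on the control values, had a median of 24.2 CPM in mock and 8.18 CPM in Hayes saline libraries. They held 32.0%, 33.1% and 32.3% of the gene counts of mock replicates A, B and C, and 15.7% to 18.8% of those of Hayes saline libraries. These shares do not depend on the scaling, but the choice of the genes does. The imbalance of large differences was not counted with library totals alone. The semen and seminal fluid libraries entered the choice of these genes through the scaling and the shared estimate of the spread, so they are no independent check. In the semen libraries these genes held 31.4% to 35.6% of the counts in Experiment 1 and 17.1% to 20.8% in Experiment 2. In the seminal fluid libraries they held 30.0% to 37.5% and 14.9% to 15.4%. The ranges of the 2 experiments did not overlap under any treatment. Of the 1019 genes, 898 were called lower in the semen pair, where 26.5% of all genes were, and 960 in the seminal fluid pair, where 33.0% were. The 186 higher genes were of low level, with medians of 0.630 CPM in mock and 1.93 CPM in Hayes saline libraries, and 103 of them were called higher in the semen pair, where 24.0% of all genes were. Genes that passed the count filter through 1 control group alone can be among these large differences. Of the 90 that passed through Hayes saline alone 46 were called between the controls, and of the 19 through mock alone 19 were. Of all genes 50.1% were called. The filter had picked a low value in the other group of these genes, so nothing is concluded from their calls. How many of them are among the 1019 lower or 186 higher genes was not counted.

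Among the gene models with no name that were picked for the size of their change, GB42956, GB40253 and GB48283 stood close to absence in 1 of the 2 control groups, and GB46365 did not. GB42956 had 2, 1 and 1 counts in mock replicates A, B and C, and 150, 171 and 154 in Hayes saline replicates A, B and C. Its semen libraries had 1, 47 and 6 counts in Experiment 1 and 45, 91 and 112 in Experiment 2. The control groups were far apart, whereas the semen groups almost met, at 1.13 normalized CPM in the highest library of Experiment 1 and 1.19 in the lowest of Experiment 2. GB42956 passed the count filter through the Hayes saline libraries alone, so the filter had picked its low mock values. No p-value of its control difference is therefore given. The semen difference had an adjusted p of 0.0409 (edgeR), and the inequality of the 2 differences did not pass adjustment. GB40253 had 2, 0 and 11 counts in the mock and 2158, 613 and 397 in the Hayes saline libraries, and 1 to 8 counts against 125 to 707 in the semen groups. Its seminal fluid groups did not differ by the test (adjusted p = 0.867, edgeR). They had 10, 362 and 244 counts in Experiment 1 and 208, 457 and 187 in Experiment 2. Between the controls GB48283 ran the other way, with 45, 67 and 35 counts in the mock and 2, 2 and 0 in the Hayes saline libraries. It passed the count filter through the mock libraries alone. In its semen groups it had 33 to 52 counts against 0, 2 and 36, so that only replicate C of Experiment 2 had kept a level like that of Experiment 1. GB46365 had normalized levels of 296, 276 and 149 CPM in the mock and 11.1, 5.24 and 3.73 CPM in the Hayes saline libraries, a log2 change of -5.17 (SE 1.44, adjusted p = 0.01, edgeR). Its libraries were uneven under the other treatments too, with 718, 13.3 and 84.3 CPM in the seminal fluid group of Experiment 1 and 12.1, 19.8 and 363 CPM in that of Experiment 2. No fold change is given for the other 3 because a control group held 0 to 3 counts in some or all libraries.

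With TMM scaling the genes of the phototransduction list were lower in Hayes saline more often than higher. The share called was near that of genes at large. All 22 list members with an identifier passed the count filter. Of these, 4 were higher and 9 lower in Hayes saline (59.1% called, against 50.1% of all genes), and the median log2 difference was -0.21, against -0.00 over all genes. In the semen pair 2 were higher and 12 lower, with a median of -0.24, and 10 members were called in the same direction in both pairs. The difference had the same sign in both pairs for 19 of the 22, was the larger between the controls for 11, and exceeded the semen difference by the test for 0. The calls of 5 of the 13, TRP, norpA, myosin-IIIb, inaD and Camkii, were lost when single control libraries were left out. The calls of GB46583 and LOC413197, also among the 13, were not followed in those fits. With library totals alone norpA (0.37), GB44174 (0.79) and TRPgamma (0.72) were called higher, while TRP, myosin-IIIb and Arp1 lost their calls. DAGLB, Camkii and inaD stayed called higher, and Actin (a), Actin (b), Pkc and LOC409631 lower. The split of all 22 members was not counted with that scaling. The list was drawn up by the study from these same samples, in comparisons other than the one made here.

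The actins had the largest differences among the list members with a protein name. Actin (b) (GB41310) had 87.5, 123 and 165 CPM in mock replicates A, B and C and 32.2, 17.1 and 15.4 CPM in Hayes saline replicates A, B and C. Every mock library was above every Hayes saline library, and the mock libraries differed widely among themselves. The log2 change was -2.54 (SE 0.36, adjusted p = 8.83e-05, edgeR), a 5.83-fold lower level. The semen groups stood at 114, 76.7 and 84.0 CPM and at 38.7, 36.5 and 50.7 CPM, a change of -1.12 (adjusted p = 0.0166). The control difference was the larger by 1.42 log2 units (95% interval of the contrast -2.44 to -0.39), which had an unadjusted p of 0.00974 and did not pass adjustment over all genes. Actin (a) (GB41311) had 15.9, 20.7 and 15.0 CPM in the mock and 3.11, 4.43 and 5.41 CPM in the Hayes saline libraries, a change of -1.99 (SE 0.31, adjusted p = 0.0002). Its semen difference was -1.53 (adjusted p = 0.00103), and the interval of the inequality, -1.35 to 0.43, included 0. Actin genes are alike in sequence, and reads aligned to several places were not assigned to genes, so the level of a single actin gene model is uncertain. Arp1, an actin-related protein, had 2069, 2253 and 2100 CPM in mock and 1366, 1275 and 1262 CPM in Hayes saline libraries. It was lower in all 3 Hayes saline libraries, with a change of -0.72 (SE 0.10, adjusted p = 0.000109), and by 0.43 in the semen pair of Experiment 2 against 1 (adjusted p = 0.00452).

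Protein kinase C differed alike in both pairs. Pkc, which phosphorylates components of the phototransduction complex, had 828, 824 and 805 CPM in mock and 417, 453 and 469 CPM in Hayes saline libraries. The groups were far apart and narrow, and the change was -0.88 (SE 0.11, adjusted p = 4.74e-05, edgeR). The semen groups stood at 988, 759 and 785 CPM and at 455, 465 and 443 CPM, a change of -0.89, and the inequality was 0.02 (95% interval -0.31 to 0.35). For norpA, the phospholipase C that the light cascade depends on in Drosophila, the control levels were 272, 261 and 263 CPM against 216, 246 and 242 CPM. The difference of -0.18 (adjusted p = 0.0656) was small and of like size to that in the semen pair (-0.22, adjusted p = 0.0293). It was 0.37 (adjusted p = 0.0159) with library totals alone, so its direction holds only relative to the typical gene, and it lost its call without each control library but mock replicate B. The call was also lost with upper quartile scaling (-0.11, adjusted p = 0.257), with no filter (adjusted p = 0.188) or the filter of 1 CPM (adjusted p = 0.127), without any 1 semen library of Experiment 2, and in fits of the 6 control libraries or of the 12 control and semen libraries alone.

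The channel TRP and the photoreceptor myosins had larger differences between the semen groups than between the controls, but the inequality did not pass the test. TRP, the light-activated cation channel, had 27.4, 21.6 and 22.0 CPM in mock and 14.5, 15.2 and 14.4 CPM in Hayes saline libraries. All Hayes saline libraries were lower, and the change of -0.68 (SE 0.32, adjusted p = 0.0942, edgeR) passed the threshold narrowly; it lost its call without any 1 of the 6 control libraries, with values of -0.74 to -0.56, and also with limma-voom, upper quartile scaling or either other filter. The semen groups stood at 26.9, 30.0 and 27.2 CPM and at 12.8, 12.2 and 8.76 CPM, a change of -1.32 (adjusted p = 0.0045), and the inequality was 0.64 (interval -0.31 to 1.58). Myosin-IIIb, a class III myosin, had 152, 120 and 132 CPM in mock and 63.5, 95.7 and 63.7 CPM in Hayes saline libraries, a change of -0.85 (adjusted p = 0.0806) beside -1.45 in the semen pair. It lost its call without either of mock replicates A and C and without either of Hayes saline replicates A and C. For ninaC the levels were 24.8, 18.4 and 17.3 CPM against 17.1, 15.5 and 14.0 CPM, a difference of -0.38 that did not pass the test (adjusted p = 0.416), beside -1.18 in the semen pair (adjusted p = 0.0174). For GNB1, a G protein beta subunit, the difference was -0.85 (adjusted p = 0.164) beside -1.59 (adjusted p = 0.0157). The intervals of the inequality included 0 for myosin-IIIb, ninaC and GNB1. These 4 genes were uneven among the seminal fluid libraries of Experiment 2, which enter the shared estimate of the spread. There ninaC stood at 8.09, 15.3 and 35.7 CPM and TRP at 7.09, 14.1 and 26.5 CPM, highest in replicate C. LOC409631, a list member without a name, had 66.1, 55.2 and 35.8 CPM in mock and 2.78, 3.64 and 2.59 CPM in Hayes saline libraries, a change of -4.12 (SE 1.31, adjusted p = 0.02), and one of -3.73 in the semen pair.

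Another 4 list members were higher in Hayes saline. DAGLB, a diacylglycerol lipase, had 2.76, 3.83 and 3.05 CPM in mock and 7.28, 4.18 and 9.92 CPM in Hayes saline libraries. The groups did not overlap, though Hayes saline replicate B was close to the highest mock library, and the change was 1.15 (SE 0.34, adjusted p = 0.0134, edgeR), a 2.22-fold higher level. The semen groups overlapped, at 2.78, 3.98 and 3.14 CPM and at 6.01, 6.78 and 2.75 CPM, with a difference of 0.65 (adjusted p = 0.129) and an inequality of 0.50 (interval -0.50 to 1.51). Camkii, a calcium/calmodulin-dependent kinase, had 211, 268 and 185 CPM against 216, 296 and 449 CPM, and inaD, the scaffold of the complex, 102, 125 and 74.9 CPM against 107, 137 and 169 CPM. The control groups overlapped for both, with changes of 0.53 (adjusted p = 0.0479) and 0.45 (adjusted p = 0.0645) that were highest in Hayes saline replicate C and lost their calls without that library or without either of mock replicates A and C. The fourth, GB46583, which has no name and is given to complete the count, had 280, 309 and 238 CPM in mock and 363, 438 and 528 CPM in Hayes saline libraries, a change of 0.69 (adjusted p = 0.00125) beside 0.53 in the semen pair. The second phospholipase C (GB44174) and TRPgamma, another channel of the TRP family, had differences of 0.25 (adjusted p = 0.165) and 0.18 (adjusted p = 0.203).

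**Figure D3:**
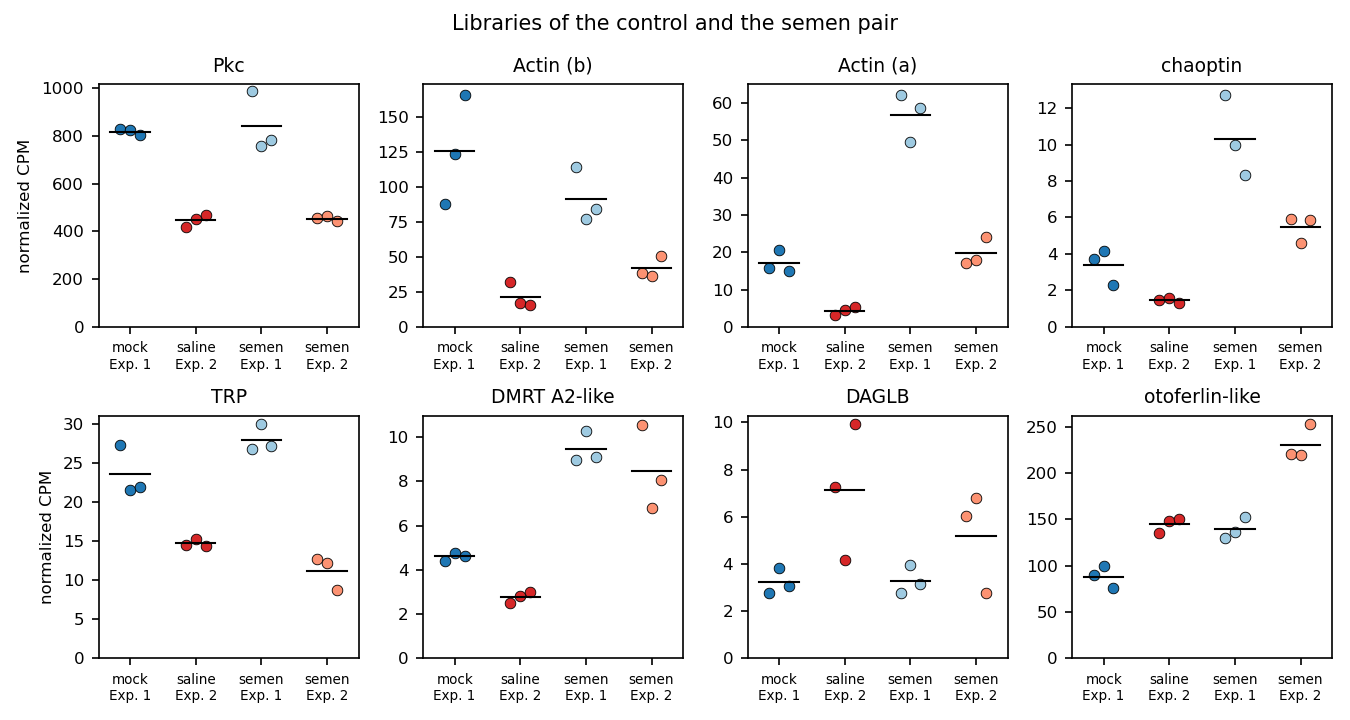
Normalized CPM (TMM scaling) of 8 named genes in each mock, Hayes saline and semen library (points) with group means (lines), on linear axes from 0. Pkc is lower in Experiment 2 by a similar amount in both pairs (-0.88 and -0.89 on the log2 scale). DMRT A2-like is lower in Hayes saline (2.50 to 2.99 CPM) than in mock libraries (4.39 to 4.78 CPM) with overlapping semen groups. Its inequality of the pairs did not pass adjustment over all genes.

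The study lists genes that changed in the same way with insemination in both experiments. These consistent genes were called about as often as genes at large. All 37 members passed the count filter, of which 5 were higher and 13 lower in Hayes saline (48.6% called, against 50.1% of all genes), with a median log2 difference of -0.10. In the semen pair 7 were higher and 11 lower with a median of -0.14, 14 were called in the same direction in both pairs, and 35 had the same sign in both. The list was chosen on these samples, the controls included. Actin (a) and norpA, described above, are also members.

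The falls of this list were led by Actin (a) and chaoptin. Chaoptin had 3.74, 4.15 and 2.30 CPM in mock and 1.45, 1.59 and 1.31 CPM in Hayes saline libraries. All mock libraries were higher, and the change was -1.22 (SE 0.23, adjusted p = 0.00089, edgeR) beside -0.92 in the semen pair (adjusted p = 0.00309). The cell adhesion molecule 3-like gene, of the immunoglobulin type by its best match, had 23.4, 21.5 and 19.0 CPM against 11.7, 13.8 and 13.4 CPM, a change of -0.72 (SE 0.11, adjusted p = 0.000145) beside -0.88. The ADAM10-like gene, a membrane protease by its best match, fell by 0.67 (adjusted p = 0.000324) beside a fall of 0.79, and the tumor D53 homolog by 0.60 (adjusted p = 0.00037) beside 0.53. In these 4 genes neither control group overlapped the other, and the interval of the inequality included 0 in each. With library totals alone the changes of the last 3 were -0.18, -0.13 and -0.05 with adjusted p of 0.294, 0.384 and 0.727.

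Of the 2 transcription factors of this list that fell, one was called between the controls and not between the semen groups. D-ETS-4, an ETS factor, had 3.09, 2.62 and 2.33 CPM in mock and 1.20, 1.66 and 1.54 CPM in Hayes saline libraries, a change of -0.86 (SE 0.19, adjusted p = 0.00241, edgeR) beside -0.71 in the semen pair. The DMRT A2-like gene, related by its best match to doublesex, had 4.39, 4.78 and 4.63 CPM in mock and 2.50, 2.84 and 2.99 CPM in Hayes saline libraries. These groups were narrow and well apart, with a change of -0.73 (SE 0.18, adjusted p = 0.00588). Its semen groups overlapped at 8.96, 10.3 and 9.10 CPM and at 10.6, 6.80 and 8.08 CPM, with a difference of -0.16 (adjusted p = 0.484). The inequality of -0.57 (interval -1.10 to -0.03) had an unadjusted p of 0.0389 and did not pass adjustment. The other members called lower, named here to complete the count, were the J domain-containing gene, Src64B, THEM6, the U8-agatoxin-Ao1a-like gene and LOC102654968.

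The 5 rises of this list were under 1 log2 unit. The otoferlin-like gene, a membrane fusion protein by its best match, had 89.4, 99.4 and 75.7 CPM in mock and 136, 149 and 151 CPM in Hayes saline libraries. All Hayes saline libraries were higher, and the change of 0.72 (SE 0.13, adjusted p = 0.000445, edgeR) stood beside 0.73 in the semen pair, an inequality of -0.01 (interval -0.38 to 0.37). The glutamyl aminopeptidase-like gene had 213, 197 and 183 CPM against 240, 258 and 250 CPM, a change of 0.34 (SE 0.09, adjusted p = 0.00873) beside 0.41. The remaining rises, named here to complete the count, were the Bardet-Biedl syndrome 2 homolog, with 0.33 (adjusted p = 0.0686) between overlapping control groups beside 0.57 in the semen pair (interval of the inequality -0.66 to 0.18), LOC727647 (0.36 beside 0.45) and LOC100577121 (0.24 beside 0.32). The neuropeptide, biogenic amine and chemosensory lists held only 4 genes with a name, and 0 of these were called between the controls, against 50.1% of all genes. The neuropeptide precursors prohormone-2-like and prohormone-3 had differences of 0.13 (adjusted p = 0.362) and 0.12 (adjusted p = 0.431), the latter beside 0.32 in the semen pair (adjusted p = 0.0453). The alpha-2A adrenergic receptor, an amine receptor by its best match, had -0.26 (adjusted p = 0.34), and the odorant receptor 85f-like gene -0.39 (adjusted p = 0.241) beside -0.54 in the semen pair (adjusted p = 0.0881). The inequality passed the test in none of these 4.

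**Figure D4:**
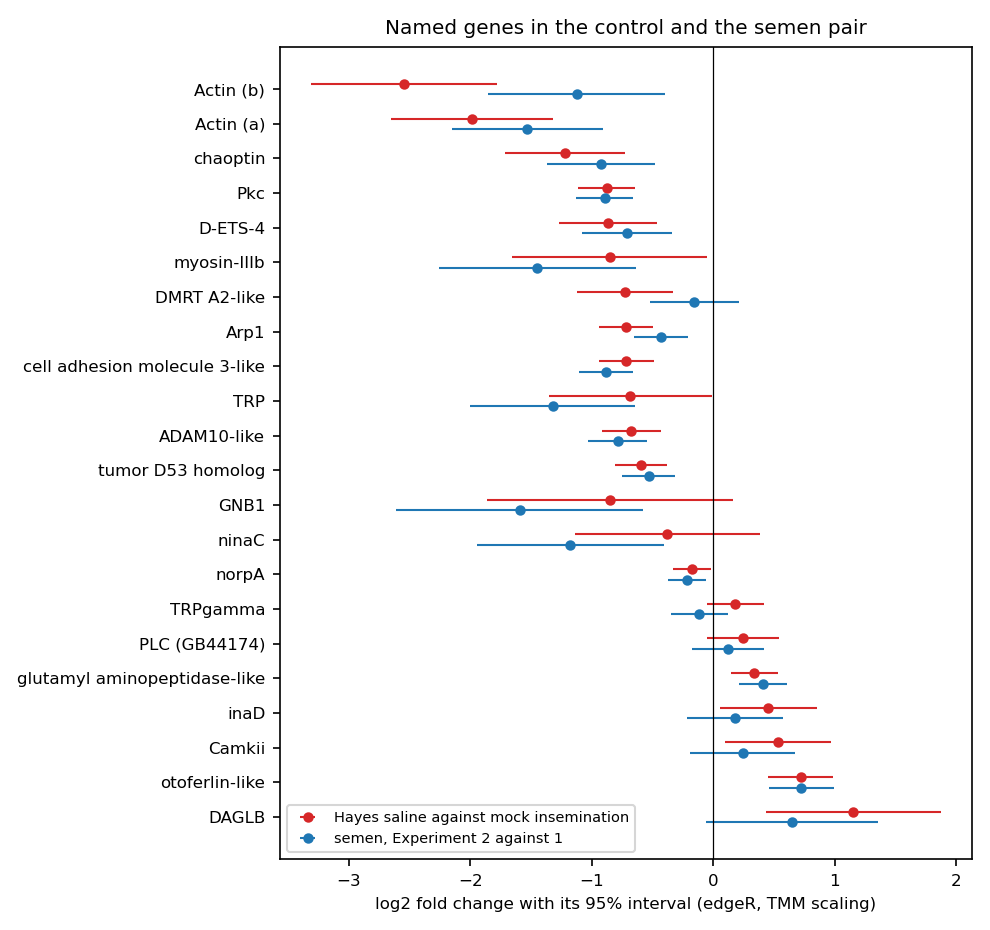
Log2 fold change (points) with its 95% interval (lines) of 22 named genes between Hayes saline and mock libraries (red) and between the semen groups of Experiments 2 and 1 (blue), from edgeR with TMM scaling. For Actin (b), -2.54 against -1.12, and for DMRT A2-like, -0.73 against -0.16, the points of the 2 pairs stand apart, whereas those of Pkc and otoferlin-like coincide. The inequality of the pairs passed adjustment over all genes in none of the 22.

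Against the seminal fluid pair the controls stood apart in 1 gene. The control difference minus the seminal fluid difference had an adjusted p under 0.1 in 1 of 11637 genes (0.00859%), and 1379 genes (11.9%) had an unadjusted p under 0.05. The gene, GB47185, is named after its values were seen. It had 20.0, 21.0 and 25.9 CPM in mock and 21.8, 21.3 and 23.1 CPM in Hayes saline libraries, so the control groups overlapped (difference -0.01, adjusted p = 0.932, edgeR). Its seminal fluid groups stood at 16.0, 16.7 and 17.3 CPM and at 33.8, 40.3 and 41.7 CPM, a change of 1.21, and its semen groups differed by 0.51 (adjusted p = 0.00103). Here it was the seminal fluid difference that was the larger, so that no gene had a control difference exceeding either reference by the test.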

How the data were processed

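The authors deposited unscaled read counts for each gene model. They had trimmed single-end 120 bp reads of a stranded mRNA kit (Trimmomatic), removed ribosomal reads (SortMeRNA), aligned the rest with STAR 2.4.2a to honeybee assembly 4.5 and counted with htseq-count. How strand and overlapping genes were handled in counting is not given in the sources used here. The 5 totals of unassigned reads per library were left out, and assigned reads made up 69.2% to 72.1% of the control libraries. No pair of replicates agreed within counting noise.

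All 18 libraries were fitted in R 4.3.3 with edgeR 4.0.16 (quasi-likelihood, TMM scaling, 6 groups as the only term, 12 residual degrees of freedom). Contrasts were Hayes saline minus mock, the semen and seminal fluid pairs (Experiment 2 minus 1), and the first minus each reference. Tests were two-sided, adjusted by Benjamini-Hochberg over all genes tested and called under 0.1, the study's false discovery rate of 10%. A control difference exceeded the semen difference if their inequality was called and the control difference was the larger in size. Standard errors are those of the fit, and CPM are normalized unless counts are named. Replicates are pools of 3 brains. Scripts were tested on simulated data.

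The rule for naming took the genes with non-overlapping control groups, at least 1 CPM in the higher group and a name: the 12 largest calls a direction (only 3 named rises met it), up to 4 called members of each list, the phototransduction genes named by the study, and 2 identifiers a direction. Names came from the study's tables for 57 gene models. Of 22 gene lists, 5 held a named member. The genes, lists and tests were chosen with earlier results of these data known.

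Alternatives were DESeq2 1.42.0, limma-voom (limma 3.58.1), 2 other scalings, no filter, a filter of 1 CPM, an adjusted p under 0.05, the 12 control and semen or the 6 control libraries alone, a replicate block, and each control or semen library left out. A robust prior, a bias-adjusted fit, a fit without the most abundant gene model, library totals, and the seminal fluid pair or the mean of both pairs as the reference were chosen after the data were seen. Promoter and protein sequences were not analysed here.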

Additional observations from a re-analysis of the deposited data

Results flagged for a closer look

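GB47185 was singled out because the difference between its control groups and that between its seminal fluid groups were unequal by a test of the inequality itself. The control difference minus the seminal fluid difference was -1.22 on the log2 scale (SE 0.14, adjusted p = 0.00229, edgeR), with -0.01 between the controls and 1.21 between the seminal fluid groups. All 3 seminal fluid libraries of Experiment 2 were above all 3 of Experiment 1, and the control libraries of the experiments overlapped. With the mean of the semen and seminal fluid pairs as the reference it was again the 1 gene called, at -0.87 (adjusted p = 0.0267). Control groups of 3 libraries are too small for a test of single outlying libraries.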

How the results depend on the processing

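Counts of genes called between the controls stayed within 1.5 times the main count under every alternative run, from 4830 at an adjusted p under 0.05 to 8236 with library totals, and from 4615 to 5992 without 1 library. The count for the semen pair ran from 4105 to 6025 and that for the seminal fluid pair from 7481 to 7669 without 1 library. The number of genes with a control difference exceeding the semen difference was 0 in all of them. The inequality was called in 0 genes except with the seminal fluid pair as the reference (1), with the mean of both pairs (1) and without mock replicate A (0 to 1 over the libraries left out). The share of higher genes, 47.3%, was 43.2% to 50.6% without 1 library, 55.6% with upper quartile scaling and 86.8% with library totals. Directions turned with library totals for norpA (0.37), GB47185 (0.54) and ninaC (0.15, not called in either fit). The difference of GB47185, -0.01 in the main fit, also changed sign with DESeq2 (0.003), upper quartile scaling (0.06) and no filter (0.02). With library totals the falls of TRP, myosin-IIIb, DMRT A2-like, Arp1, ADAM10-like, D-ETS-4, tumor D53 homolog and cell adhesion molecule 3-like lost their calls, while Actin (a), Actin (b), chaoptin and Pkc kept theirs.

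Replicate letters did not pair the control libraries: deviations of same-lettered libraries from their group means had correlations of -0.14, -0.02 and -0.29, and not every library correlated best with its own letter. A fit with a replicate block called 5791 genes between the controls and 5877 between the semen groups, and 0 in the inequality.

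With 3 libraries a group the inequality had a median standard error of 0.21 log2 units, and of 0.45 in the lowest of 4 bins of level, which limits the size that can be resolved.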

Other observations

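GB40548 is given here as a value only, after its values were seen, because leaving out 1 library brought it past the threshold. It had 25.4 CPM in mock replicate A, 1.49 and 1.01 CPM in mock replicates B and C, and 1.07 to 1.55 CPM in the Hayes saline libraries. The semen libraries of Experiment 1 had 22.6, 56.0 and 30.7 CPM, and those of Experiment 2 had 1.13 to 1.52 CPM. Mock replicates B and C thus stood at the level of Experiment 2, whereas mock replicate A stood at that of the semen and seminal fluid libraries of its own experiment (22.6 to 56.0 CPM). With all libraries the inequality of the control and semen differences was 1.89 (unadjusted p = 0.122), and without mock replicate A it was 4.82 (adjusted p = 0.0028, edgeR). In that fit the control difference was 0.05 and the semen difference -4.77. No cause was tested.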
